A study of Mus musculus with 6 samples.

Results

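RNA-seq counts were examined for 10 genes of the cytotoxic granule, the 7 granzyme genes Gzma, Gzmb, Gzmc, Gzmd, Gzme, Gzmf and Gzmk, together with Prf1, Nkg7 and Serpinb9, out of 56941 genes in the count table. They were taken by name as genes of known roles in the granule, with earlier results of these data known, and all 10 were found in the table. The samples are labelled as CD8+ T cells from the spleen of B6 mice, with purified naive cells as the starting material, stimulated with plate-bound antibodies to CD3 and CD28 plus rIL2 at 100 U/ml for 3 days. Exposed cultures received 5 µM S1P, a circulating lipid recognised by S1PR1 and related receptors, 24 h into stimulation, and control cultures received vehicle at that time, with 3 samples in each group. The sample titles call the 3 samples of a group biological replicates, and neither they nor the methods say whether each came from its own mouse, so the p-values below measure the spread between these samples. Sex and age are not given for the mice of these cultures in the sources used here. The comparison asks how the killing machinery of activated CD8+ T cells differed in mRNA level after S1P.

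Cytotoxic T cells kill by releasing granules onto a target cell. Perforin, the product of Prf1, opens the target membrane, and granzymes, serine proteases held in the granule, pass into the target and cleave proteins that start cell death. Nkg7 is a small membrane protein of cytotoxic granules that takes part in their release, and Serpinb9 is an intracellular inhibitor of granzyme B that protects the killer cell from its own protease. Activated CD8+ T cells are known for strong Gzmb expression, whereas the related genes Gzmc to Gzmf, which sit beside it in the genome, are typically expressed later or under prolonged IL-2.

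Total counts per sample lay between 12048880 and 17384084. S1P-treated replicate 2 stood apart from the other samples, with 7.80% of its counts on mitochondrially encoded genes against 4.10% to 4.93% elsewhere, and the edgeR fit over all genes was also run without it. The markers of CD8 T cells were present, but Cd4 was at 203 ± 18.4 CPM (CPM as edgeR computes it from TMM-scaled library sizes; SD, n = 3) in vehicle-treated samples, beside 222 ± 24.9 for Cd8a, and the 5 B cell markers summed to between 510 and 635 CPM, so transcripts that mark other lymphocytes were present in both groups. The study's culture methods allow either purified naive T cells or whole splenocytes as the start, and the purity of these cultures is not given in the sources used here. Markers of NK cells, which also carry granzymes, summed to at most 5.97 CPM over 7 genes, and 8 markers of mast cells and basophils to at most 1.22, with Mcpt4, Tpsb2 and Tpsab1 at 0 counts in all 6 samples. The 5 myeloid markers summed to at most 1.23 CPM and the 4 markers of gamma delta T cells, which can also carry granzymes, to 25.8 to 26.7 in vehicle-treated and 19.9 to 24.7 in S1P-treated samples, without overlap. In RNA from bulk cultures, fewer cells of a type and less RNA per cell cannot be told apart.

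Of the 10 genes, Nkg7 changed most clearly and fell to about 53.5% of the vehicle level (log2 fold change -0.90) after S1P. The mean level differed by -15.5% for Prf1 and -14.2% for Serpinb9, in each case with all S1P-treated samples below all vehicle-treated samples, and neither passed both thresholds. Cd8a and Cd8b1 fell in the same samples (log2 fold changes -0.67 and -0.55), and per read of these genes Prf1 was 1.30-fold and Serpinb9 1.31-fold the vehicle level, while the ratio for Nkg7 was 0.817, as given further on without a test. That scaling moves all genes upward alike, so a gene with no change in CPM would also lie above the vehicle level on it. Gzmb, which supplied between 87.9% and 90.5% of all counts of the 10 genes in a sample, had a log2 fold change of -0.10 with overlapping groups. To be called here, a gene had to reach 0.05 or less for the adjusted p in edgeR's quasi-likelihood test, taken over all 13299 genes tested, and to differ by 0.3 or more on the log2 scale. Enough counts for that test were found for 6 of the 10 genes, and 4 (Gzmd, Gzme, Gzmf and Gzmk) were too low. Of the 6, Nkg7 was called lower and none higher, where 10.4% of all genes tested were called lower and 12.7% higher. Groups did not overlap, with S1P below, for 3 of the 6, against 22.6% of all genes tested, and with S1P above for none of the 6, against 23.0%. The median log2 fold change was -0.16 over the 6 genes and 0.01 over all genes tested.

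**Figure D1:**
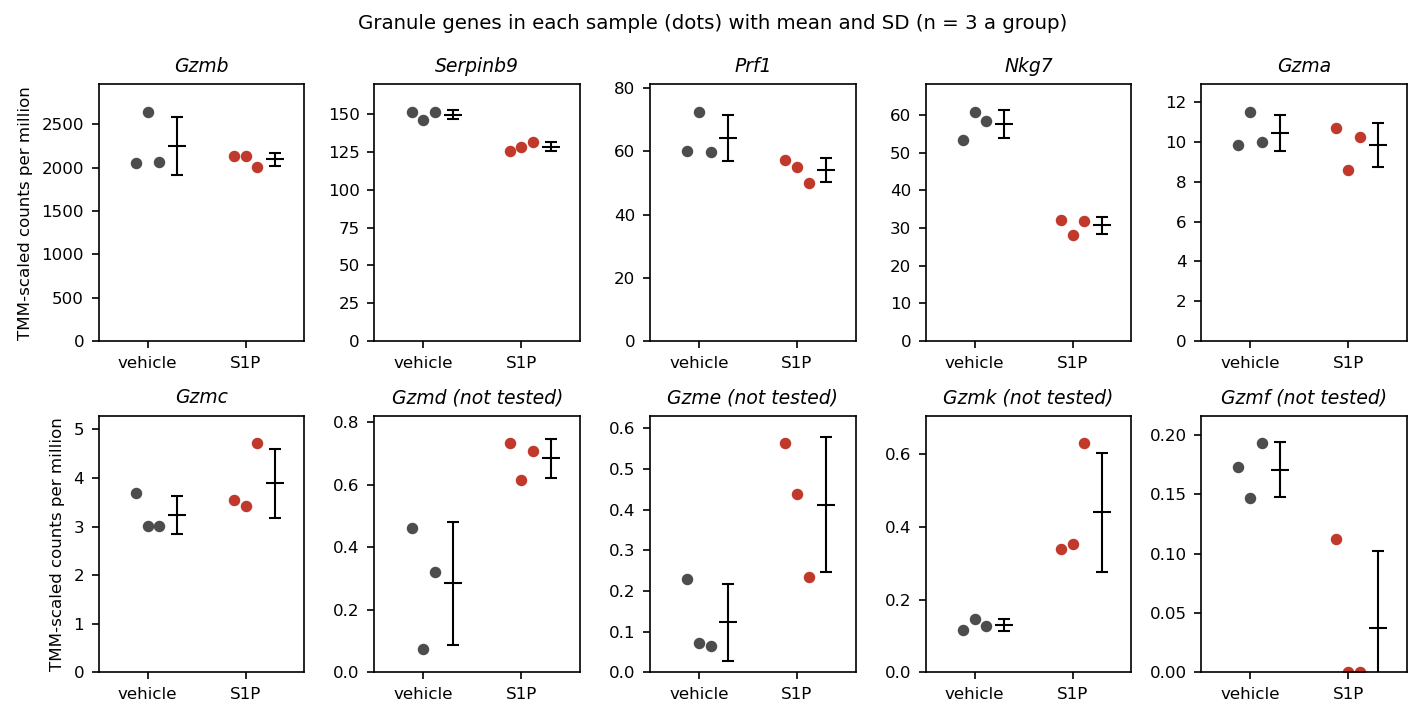
Each panel gives 1 gene, with dots for the samples of vehicle-treated (grey) and S1P-treated (red) cells in CPM after TMM scaling and bars for the mean and SD of 3 samples, on linear axes that start at 0. The red dots of Nkg7 lie between 28.1 and 32.1, below the grey dots at 53.4 to 60.8, while those of Gzmb lie within the grey range or just below it.

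To show what stands upstream of the genes that carry these results, the 250 bases before the annotated start of transcription were read from GRCm39 for Nkg7, the gene that fell, for Prf1 and Gzmb, and for Gzmd and Gzme, the near-identical pair whose reads are hard to separate. Capitals mark matches, on either strand, to the letters GGTGTGA (T-box factors such as T-bet and Eomes), TGTGGT (RUNX factors), TGAGTCA or TGACTCA (AP-1) and TTCNNNGAA (STAT factors, N being any base). None of these 5 windows holds an annotated exon base, and each reads 5′ to 3′ towards its gene. In the order given, they are chr7:43086247-43086496 (plus strand), chr10:61133296-61133545 (plus strand), chr14:56499718-56499967, chr14:56370066-56370315 and chr14:56358083-56358332 (minus strand for the last 3).
Nkg7: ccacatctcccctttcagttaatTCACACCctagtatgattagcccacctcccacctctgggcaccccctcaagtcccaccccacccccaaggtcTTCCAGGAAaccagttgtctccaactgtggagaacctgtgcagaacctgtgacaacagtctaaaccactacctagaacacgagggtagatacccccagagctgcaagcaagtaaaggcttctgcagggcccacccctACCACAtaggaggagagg
Prf1: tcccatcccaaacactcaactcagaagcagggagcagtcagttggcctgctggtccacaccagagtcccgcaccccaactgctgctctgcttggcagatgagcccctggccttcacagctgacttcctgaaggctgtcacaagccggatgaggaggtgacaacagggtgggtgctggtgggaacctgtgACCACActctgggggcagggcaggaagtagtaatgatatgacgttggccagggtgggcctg
Gzmb: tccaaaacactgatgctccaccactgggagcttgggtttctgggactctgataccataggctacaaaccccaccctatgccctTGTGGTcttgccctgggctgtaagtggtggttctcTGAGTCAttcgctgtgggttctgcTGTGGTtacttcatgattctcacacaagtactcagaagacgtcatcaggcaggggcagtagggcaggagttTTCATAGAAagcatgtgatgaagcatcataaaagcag
Gzmd: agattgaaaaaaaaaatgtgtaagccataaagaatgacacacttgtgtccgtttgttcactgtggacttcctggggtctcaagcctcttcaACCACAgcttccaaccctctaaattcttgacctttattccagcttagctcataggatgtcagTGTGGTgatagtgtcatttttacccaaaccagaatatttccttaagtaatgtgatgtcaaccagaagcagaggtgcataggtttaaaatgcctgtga
Gzme: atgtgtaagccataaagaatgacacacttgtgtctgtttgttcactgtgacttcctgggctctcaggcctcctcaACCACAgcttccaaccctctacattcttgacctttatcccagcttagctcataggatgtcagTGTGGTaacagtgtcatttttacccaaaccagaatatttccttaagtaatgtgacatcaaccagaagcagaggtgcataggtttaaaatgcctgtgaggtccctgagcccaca

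The RUNX letters were found in 8 of the 10 promoters of that length, all but those of Gzmk and Serpinb9, against 13.0% of 21770 promoters of protein-coding genes. The windows of those 2 genes differ from the rest in holding annotated exon bases of their own gene, 192 of the 250 for Serpinb9 and 24 for Gzmk. Related promoters hold them in common, since the windows of Gzmd and Gzme are 84.2% identical and the windows of Gzmc, Gzmd, Gzme and Gzmf each have 1 match on either strand, so these 8 are not independent. The T-box letters were found for Nkg7 and Gzmk (3.23% of all promoters), the AP-1 letters for Gzmb (4.02%) and the STAT letters for Gzmb and Nkg7 (7.70%). No motif overlapped another in the 5 printed windows. These are matches of letters and were not tested as binding sites.

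Nkg7 (ENSMUSG00000004612, chromosome 7 from 43086497 to 43087678 of GRCm39, plus strand, 4 exons in its main transcript) has no other annotated gene over its exons. Vehicle-treated replicates 1, 2 and 3 had 53.4, 60.8 and 58.4 CPM, and S1P-treated replicates 1, 2 and 3 had 32.1, 28.1 and 31.9. The groups were far apart, and the highest S1P-treated sample stood well under the lowest vehicle-treated sample. The mean fell from 57.5 ± 3.75 to 30.7 ± 2.25 CPM (SD, n = 3 each). On the log2 scale this was -0.90 with a standard error of 0.08 (edgeR adjusted p = 4.65e-05). It was called in each of 13 other fits, with log2 fold changes between -0.96 and -0.84.

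Prf1 (ENSMUSG00000037202, chromosome 10 from 61133546 to 61140461, plus strand, 3 exons), the pore-forming member, had 60.2, 72.5 and 59.7 CPM in vehicle-treated replicates 1, 2 and 3. S1P-treated replicates 1, 2 and 3 had 57.2, 55.1 and 49.9. All S1P-treated samples lay below the vehicle-treated samples, but the gap of the nearest pair was small beside the height of vehicle-treated replicate 2. The means were 64.1 ± 7.23 and 54.1 ± 3.77 CPM (SD, n = 3 each). The log2 fold change was -0.24 with a 95% interval of -0.44 to -0.04 (edgeR adjusted p = 0.0666). Prf1 was therefore not called. Over 13 other fits its log2 fold change lay between -0.29 and -0.15, under the fold threshold in size, and Prf1 was called in none. The edgeR adjusted p was lowest without a filter on low counts (0.0392, log2 fold change -0.27). It was highest without vehicle-treated replicate 2 (0.259, log2 fold change -0.15).

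Granzyme B, which cleaves after aspartate and activates caspases, was by far the most abundant of the proteases. Gzmb (ENSMUSG00000015437, chromosome 14 from 56496295 to 56499717, minus strand, 5 exons) had 2051, 2642 and 2061 CPM in vehicle-treated replicates 1, 2 and 3. In S1P-treated replicates 1, 2 and 3 it had 2135, 2139 and 2010. Only vehicle-treated replicate 2 was high, and the S1P-treated samples were spread around the other two vehicle-treated samples. The log2 fold change was -0.10 with a 95% interval of -0.33 to 0.12 (edgeR adjusted p = 0.479). Without vehicle-treated replicate 2 it was 0.02. That replicate also had the largest sum of CD8 T cell markers, 1650 CPM against 1480 and 1521 in the other vehicle-treated samples, and the smallest sum of B cell markers, 510 against 634 and 635, and their part in the Gzmb level was not tested.

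Gzma (ENSMUSG00000023132, chromosome 13 from 113230355 to 113237524, minus strand) encodes a tryptase of the granule. Its CPM were 9.86, 11.5 and 10.0 in vehicle-treated replicates 1, 2 and 3, and 10.7, 8.60 and 10.3 in S1P-treated replicates 1, 2 and 3. The groups overlapped, with a log2 fold change of -0.07 and a 95% interval of -0.36 to 0.21 (edgeR adjusted p = 0.707). Gzmc (ENSMUSG00000079186, chromosome 14 from 56468857 to 56479211, minus strand), the closest relative of Gzmb in the cluster with 75.9% identity of the coding sequence, had 3.69, 3.01 and 3.02 CPM in vehicle-treated replicates 1, 2 and 3. In S1P-treated replicates 1, 2 and 3 it had 3.55, 3.42 and 4.71. S1P-treated replicate 3 was the highest, and the other S1P-treated samples lay within the vehicle-treated range. Its log2 fold change was 0.25 with a 95% interval of -0.19 to 0.69 (edgeR adjusted p = 0.3745), an interval wide enough to hold changes past the threshold in the higher direction. Without S1P-treated replicate 3 it was 0.09.

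The 4 genes that were not tested were close to the limit of the sequencing depth, where 3 counts in a sample correspond to 0.169 to 0.263 CPM. Gzmd (ENSMUSG00000059256, chromosome 14 from 56367013 to 56370065, minus strand) had 8, 1 and 5 counts in vehicle-treated replicates 1, 2 and 3 and 13, 7 and 9 in S1P-treated replicates 1, 2 and 3. Gzme (ENSMUSG00000022156, chromosome 14 from 56355083 to 56358082, minus strand) had 4, 1 and 1 counts and 10, 5 and 3 counts. Both belong to the arm of the cluster whose products are expressed late in activation. After scaling for depth all S1P-treated samples were above all vehicle-treated samples for both. Taken over the groups, the ratio of S1P to vehicle was 2.30 for Gzmd, with an exact 95% interval of 1.18 to 4.71, and 3.33 for Gzme, with one of 1.27 to 10.25. These intervals, like the floors, cover counting error only and not the spread between samples. Gzmd and Gzme are 93.3% identical over their coding sequences and share 39.4% and 44.4% of their 31-base stretches with other genes, first of all with each other, so that reads may be assigned to either or to neither, and the 2 results are not separate.

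Gzmk (ENSMUSG00000042385, chromosome 13 from 113308142 to 113362442, minus strand), a tryptase gene often associated with memory cells, had 2 counts in each vehicle-treated sample and 6, 4 and 8 in S1P-treated replicates 1, 2 and 3. The S1P-treated samples were all above, at a ratio of 3.33 with an exact 95% interval of 1.27 to 10.25. A gene on the opposite strand, Gm59720, covers 10.7% of its exon bases, and the strand setting of the counting is not given in the sources used here. Gzmf (ENSMUSG00000015441, chromosome 14 from 56442720 to 56448874, minus strand) had 3, 2 and 3 counts in vehicle-treated replicates 1, 2 and 3 and 2, 0 and 0 in S1P-treated replicates 1, 2 and 3. Its S1P-treated samples were all below the vehicle-treated samples after scaling for depth. Taken over the groups, 8 counts stood against 2, a ratio of 0.278 with an exact 95% interval of 0.0287 to 1.39 that includes no difference. Of the 31-base stretches of Gzmf, 35.8% also occur in other genes, and 16.4% of its exon bases lie under Gm4022 on the opposite strand. In a fit without a filter on low counts none of the 4 was called, with edgeR adjusted p values of 0.186 for Gzmd, 0.199 for Gzme, 0.187 for Gzmk and 0.521 for Gzmf. A difference in these genes was thus not established at this depth.

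Serpinb9 (ENSMUSG00000045827, chromosome 13 from 33187233 to 33201940, plus strand, 7 exons), the inhibitor, had 151.4, 146.1 and 151.3 CPM in vehicle-treated replicates 1, 2 and 3. S1P-treated replicates 1, 2 and 3 had 125.5, 128.1 and 131.5. Both groups were narrow and did not overlap. The mean went from 149.6 ± 3.05 to 128.4 ± 3.02 CPM (SD, n = 3 each), and the log2 fold change of -0.22, with a 95% interval of -0.36 to -0.09, passed the adjusted p (edgeR adjusted p = 0.020) but not the fold threshold. Without vehicle-treated replicate 1 or 3 the edgeR adjusted p was 0.0851 and 0.0844. Just 3.47% of its 31-base stretches occur in other genes, mostly in its neighbour Serpinb9b, which had 4 to 14 counts per sample.

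**Figure D2:**
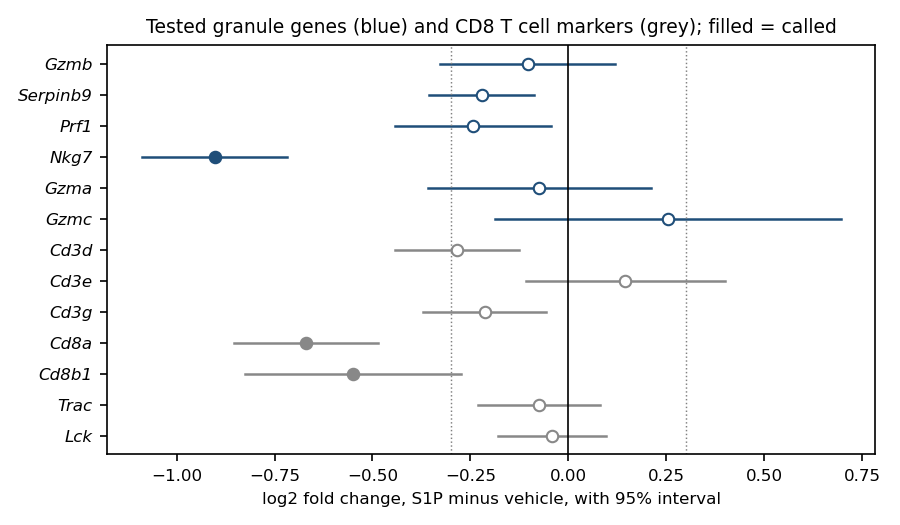
Points give the log2 fold change of S1P against vehicle for the 6 tested granule genes (blue) and 7 CD8 T cell markers (grey), lines the 95% interval, filled points the genes that passed both thresholds and dotted lines the fold threshold of 0.3. Nkg7 lies farthest to the left, at -0.90, and Cd8a and Cd8b1 are the filled grey points at -0.67 and -0.55.

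Levels of different genes were compared per length, as reads per kilobase of merged exons and scaled library (RPKM) with the same scaling, and as a description. In vehicle-treated cells Gzmb was at 1568 ± 236 RPKM (SD, n = 3), rank 13 of 13260 tested genes with an annotated length, and in S1P-treated cells at 1459 ± 50.9, rank 11. Nkg7 came next at 62.6 ± 4.08 RPKM in vehicle-treated and 33.4 ± 2.45 in S1P-treated cells, a move from rank 453 to rank 988. Serpinb9 (30.8 ± 0.629 RPKM) and Prf1 (24.2 ± 2.73 RPKM) followed in vehicle-treated cells, and their sample ranges did not touch, at 30.1 to 31.2 and 22.5 to 27.3. Gzma was at 6.78 ± 0.590 and Gzmc at 2.86 ± 0.344 RPKM. Gzmd, Gzmf, Gzme and Gzmk were all under 0.5 RPKM in vehicle-treated samples, and of these 4 only Gzmf and Gzmk did not overlap in range. In S1P-treated cells the first 7 kept this order. Nkg7 (30.6 to 34.9 RPKM) and Serpinb9 (25.9 to 27.1) were then much closer to each other than in vehicle-treated cells, still without overlap by merged exons. By longest transcript their S1P-treated means were 34.8 and 31.3 RPKM, and the sample ranges overlapped.

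The markers that define the CD8 lineage moved in these samples too. Cd8a, which encodes the alpha chain of the CD8 co-receptor, had 207.6, 250.6 and 207.5 CPM in vehicle-treated replicates 1, 2 and 3 and 144.0, 131.9 and 142.5 in S1P-treated replicates 1, 2 and 3. Its log2 fold change was -0.67 (edgeR adjusted p = 0.000243), and that of Cd8b1, which encodes the beta chain, was -0.55 (edgeR adjusted p = 0.00767), or -0.37 without vehicle-treated replicate 2. The other 5 of the 7 markers (Cd3d, Cd3e, Cd3g, Trac and Lck), shared by CD8+ and CD4+ T cells, had log2 fold changes between -0.28 and 0.15 and were not called, although Cd3d and Cd3g passed the adjusted p (edgeR adjusted p = 0.0129 and 0.0444). The sum of the 7 was 1480 to 1650 CPM in vehicle-treated and 1324 to 1428 in S1P-treated samples. Of the 4 CD4 T cell markers, Cd40lg (0.50) and Zbtb7b (0.37) were called higher, 50% where 12.7% of all genes tested were, and Cd4 (0.10) and Foxp3 (0.02) were not called. Of the 5 B cell markers, Ms4a1 was called lower (-0.39), and of the 3 gamma delta T cell markers tested, Trdc (-0.35). The part of these shifts in the levels of the granule genes was not tested.

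Because of this, the members were also expressed per read of Cd8a plus Cd8b1, a scaling chosen after those levels were seen and given without a test. On it, Gzmb had 6.59, 6.66 and 6.67 reads per CD8 read in vehicle-treated replicates 1, 2 and 3 and 9.28, 10.4 and 9.05 in S1P-treated replicates 1, 2 and 3. The vehicle-treated samples, spread out per library, were almost equal on this scale, and all S1P-treated samples were above them, by 1.44-fold for the means. Prf1 (1.30-fold), Serpinb9 (1.31-fold), Gzma (1.45-fold) and Gzmc (1.82-fold) were also above in all S1P-treated samples. Nkg7 stayed below in every S1P-treated sample, with 0.172, 0.153 and 0.189 reads per CD8 read in vehicle-treated replicates 1, 2 and 3 against 0.139, 0.137 and 0.1435 in S1P-treated replicates 1, 2 and 3, a ratio of 0.817. The direction for Gzmb, Prf1, Serpinb9 and Gzma thus turned with the denominator, whereas that of Nkg7 did not and its size shrank. Because reads of Cd8a and Cd8b1 fell, this scaling moves all genes upward alike. On the log2 scale Gzmc went from 0.25 to 0.87 and Nkg7 from -0.90 to -0.29. A gene with no change in CPM would also lie above on it, so the turn is not particular to these genes. Whether Cd8a and Cd8b1 reads stand for the number of CD8+ T cells in both groups was not tested.

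**Figure D3:**
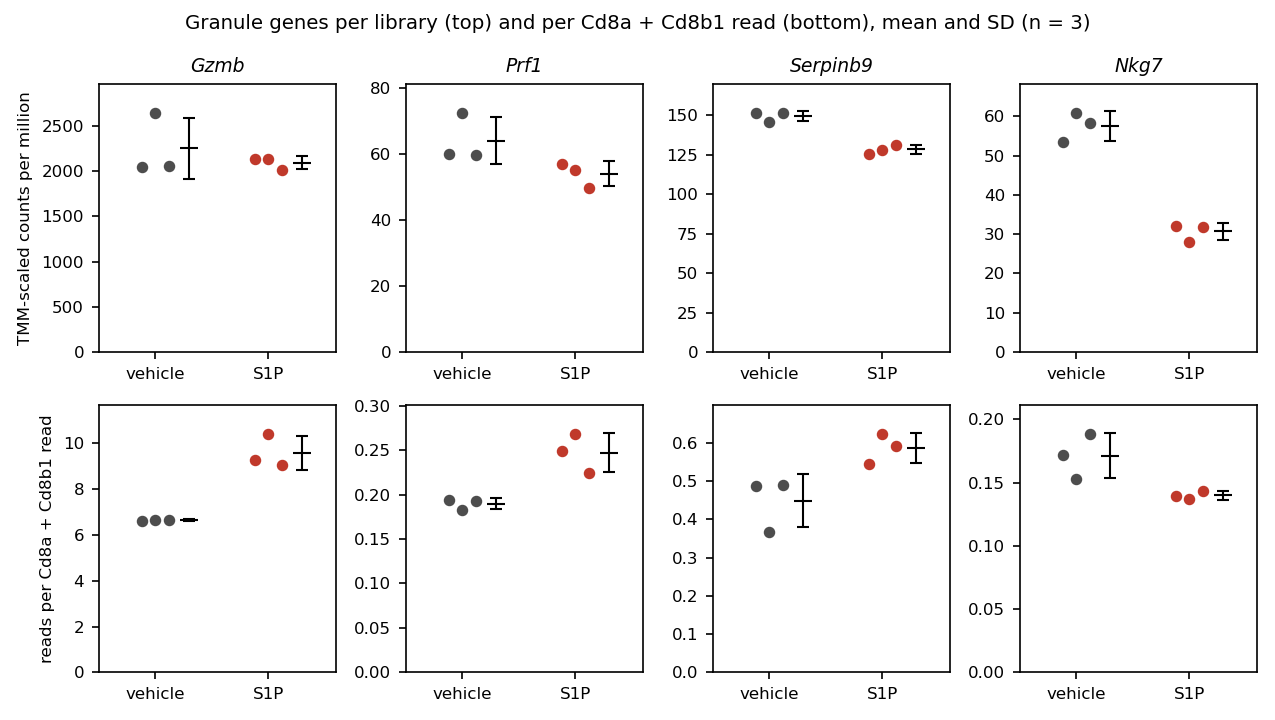
The upper row gives CPM and the lower row reads per read of Cd8a plus Cd8b1 for 4 genes, with dots for samples, bars for the mean and SD of 3 samples, and axes that start at 0. S1P-treated Gzmb is at 2010 to 2139 CPM, within or near the vehicle-treated samples, and at 9.05 to 10.4 reads per CD8 read, above all vehicle-treated samples.

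The rest of the granule pathway was described with 54 further genes, of which 53 were found and 49 tested. Of the 49, 7 were called higher and 6 lower, 14.3% and 12.2%, close to the 12.7% and 10.4% of all genes tested, and the median log2 fold change was 0.06. Crtam, an adhesion receptor of activated CD8+ T cells listed here with the granule contents, fell most. It had 160, 164 and 174 CPM in vehicle-treated replicates 1, 2 and 3 and 75.3, 80.1 and 86.4 in S1P-treated replicates 1, 2 and 3, which is -1.04 on the log2 scale (edgeR adjusted p = 1.11e-05). Its groups did not overlap. Ctsw, which encodes a cathepsin of cytotoxic cells, fell from 32.2 ± 4.39 to 21.3 ± 3.47 CPM (SD, n = 3 each; log2 fold change -0.58, edgeR adjusted p = 0.00652). Srgn, which encodes serglycin, the proteoglycan that packs granzymes, rose, with 337, 344 and 353 CPM in vehicle-treated replicates 1, 2 and 3 and 410, 611 and 438 in S1P-treated replicates 1, 2 and 3. On the log2 scale Srgn differed by 0.50 (edgeR adjusted p = 0.0119), and the high sample was S1P-treated replicate 2, without which the log2 fold change was 0.30, just under the threshold (edgeR adjusted p = 0.00132). Without vehicle-treated replicate 1 it was 0.48 (edgeR adjusted p = 0.0521). Ctsc, whose product removes the propeptide of granzymes, was at 165.5 ± 5.97 and 156.0 ± 12.25 CPM, a log2 fold change of -0.09 with a 95% interval of -0.25 to 0.07.

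Among 15 tested genes of granule transport and fusion, 2 were called higher (13.3%, near the 12.7% of all genes tested) and none lower. Stx11, which encodes a syntaxin needed for granule release, rose from 28.4 ± 3.60 to 45.2 ± 0.495 CPM (SD, n = 3 each), which is 0.67 on the log2 scale (edgeR adjusted p = 0.000462). Vamp2, which encodes a vesicle SNARE, was 0.38 higher on the log2 scale (edgeR adjusted p = 0.0419) with overlapping groups, and lost its call without S1P-treated replicate 2 (0.23, edgeR adjusted p = 0.0784) and without vehicle-treated replicate 1 or 3 (0.33 each). Rab27a and Unc13d, which act in docking and priming of granules, had log2 fold changes of 0.17 and -0.21 with edgeR adjusted p values of 0.133 and 0.0952. Without S1P-treated replicate 1, Unc13d was called lower, at -0.32 (edgeR adjusted p = 0.0103). None of 4 tested serpins of the inhibitor family was called, where 12.7% of all genes tested were called higher and 10.4% lower.

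Of the 4 death ligands, 2 were called lower (50%) and none higher, against 10.4% and 12.7% of all genes tested. Tnfsf10, which encodes TRAIL, fell from 29.9 ± 0.942 to 20.6 ± 0.448 CPM (SD, n = 3 each; log2 fold change -0.54, edgeR adjusted p = 0.0007735). Lta had a log2 difference of -0.52 (edgeR adjusted p = 0.0163) with overlapping groups, and lost its call without vehicle-treated replicate 1 (-0.47), vehicle-treated replicate 3 (-0.41) or S1P-treated replicate 3 (-0.52, edgeR adjusted p = 0.0572). Fasl, the other main route of killing by T cells, had a log2 fold change of 0.15 with a 95% interval of -0.16 to 0.46 (edgeR adjusted p = 0.447). Of the other granzymes, Gzmg and Gzmn had 0 counts in all 6 samples, under the floor of 3 counts a sample used above, where 33.8% of the 31-base stretches of Gzmg and 11.6% of those of Gzmn also occur in other genes, and Gzmm, with 7 to 22 counts per sample, had a log2 difference of -0.65 (edgeR adjusted p = 0.2035). Gm68542, on the opposite strand, covers 30.4% of the exon bases of Gzmm.

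Regulators of the cytotoxic program went both ways, with 4 of 16 (25%) called higher and 2 (12.5%) lower, against 12.7% and 10.4% of all genes tested, so that the lower share was near that of all genes. Eomes, a T-box factor of effector and memory cells, fell from 65.0 ± 2.61 to 36.0 ± 5.56 CPM (SD, n = 3 each; log2 fold change -0.86, edgeR adjusted p = 0.000162). Its relative Tbx21, which encodes T-bet, had a log2 fold change of -0.17 and was not called (edgeR adjusted p = 0.1025), and it is named here after its value was seen. Runx3, the RUNX factor of the CD8 lineage, rose from 90.1 ± 11.0 to 131 ± 11.2 CPM (log2 fold change 0.54, edgeR adjusted p = 0.0018). Zeb2 (0.54), Id2 (0.37) and Il12rb2, a chain of the IL-12 receptor (0.73), were also called higher. Genes on the opposite strand cover 36.2% of the exon bases of Id2 and 40.0% of those of Il12rb2. The study's methods describe strand-specific libraries, but the strand setting of the counting is not given in the sources used here. If it ignored the strand, reads of those genes may be counted with Id2 and Il12rb2. Il12rb1, the other chain, had a log2 fold change of -0.30 at the threshold (edgeR adjusted p = 0.0148), and lost its call without vehicle-treated replicate 1 (-0.28), vehicle-treated replicate 3 (-0.30), S1P-treated replicate 2 (-0.25) or S1P-treated replicate 3 (-0.29).

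**Figure D4:**
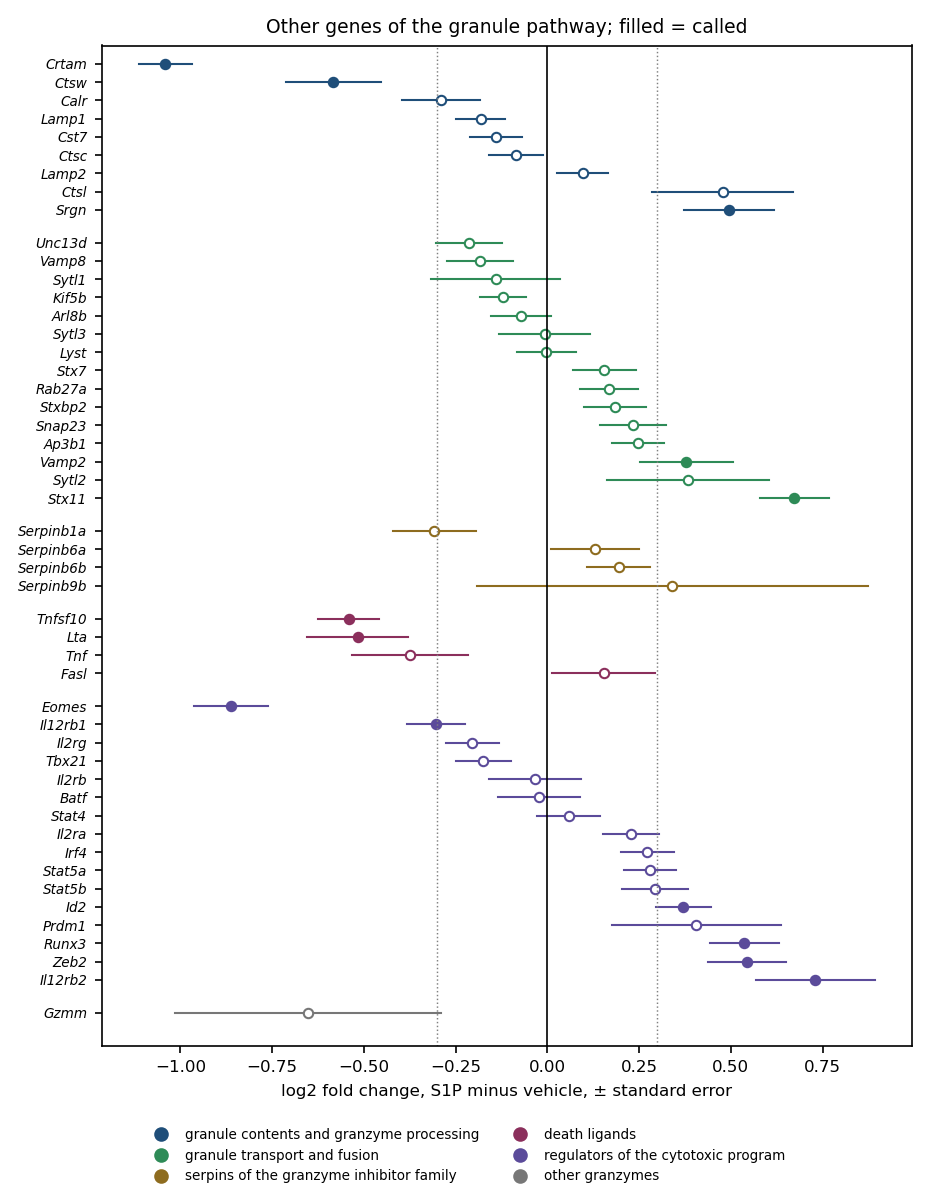
Points give the log2 fold change of S1P against vehicle for the 49 tested pathway genes, grouped by list and colour, with lines for the standard error, filled points for called genes and dotted lines at the fold threshold of 0.3. The 7 filled points to the right include Il12rb2 at 0.73 and Stx11 at 0.67, and the 6 to the left include Crtam at -1.04 and Eomes at -0.86.

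The genes whose profile over the 6 samples lay nearest to a member were found by the root-mean-square difference of centred log2 CPM, as a description. For Gzmb they were Gm7901 (0.04), Gm48865 (0.04) and Zbtb49 (0.04), where the median over all genes tested was 0.23. For Prf1 they were Gtf2ird2 (0.04), a gene without a symbol in the annotation (ENSMUSG00000067017, 0.04) and Troap (0.06), where the median was 0.24. No other member was among them.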

How the data were processed

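The deposited table holds raw read counts per Ensembl gene for 6 samples. Per the submitters' processing notes and the study's methods, the authors trimmed reads with Trim Galore, aligned them to GRCm39 with STAR, counted them with featureCounts and compared groups with DESeq2. The study's methods describe strand-specific libraries made with dUTP. Versions, annotation, the strand setting of the counting and treatment of multi-mapping reads are not given in the sources used here.

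Total counts were 12048880 to 17384084. Genes were named from GENCODE vM39 (56323 of 56941 identifiers had a symbol), filtered with filterByExpr and scaled by TMM, and S1P was tested against vehicle with edgeR 4.0.16's quasi-likelihood test in R 4.3.3, with Benjamini-Hochberg adjustment over 13299 genes. A call required 0.05 or less for the adjusted p and 0.3 or more for the size of the log2 fold change. The standard error is the log2 fold change divided by the square root of F. Levels shown are TMM-scaled CPM, computed here from the deposited counts without a pseudocount. The test was first run on simulated counts with the same relative spread for every gene and sample. That run does not cover a sample that stands apart, as S1P-treated replicate 2 did. Genes sharing sequence were found by 31-base stretches of annotated transcripts. Ratios of low genes have exact 95% intervals for counting error only.

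The members and lists were chosen with earlier results of these data known. All 10 members are named, and of the pathway lists every called gene plus Ctsc, Srgn, Unc13d, Rab27a, Gzmm and Fasl, whatever their result. Tbx21, Gzmg, Gzmn and Serpinb9b, outside that rule, were named after their values were seen. For Gzmb and Prf1 the 3 nearest genes are named. Of the lists, 1 gene, Vamp7, had no match. Alternatives were DESeq2 1.42.0, limma-voom (limma 3.58.1), RLE or no scaling factors, other filters and thresholds, a replicate block and leaving out each library.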

Additional observations from a re-analysis of the deposited data

How the results depend on the processing

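Nkg7 was called lower in each of the 13 other fits that kept the thresholds. On adjusted p alone, 2 granule genes (Nkg7 and Serpinb9) were lower, 12 of the pathway genes were higher and 6 lower, and 1949 of all 13299 genes tested were higher and 1839 lower. At a log2 fold change of at least 1, 0 granule genes, 0 pathway genes higher and 1 pathway gene lower (Crtam) were left, with 383 of all genes higher and 82 lower. With 1 library left out at a time, the log2 fold change of Gzmb ran from -0.170 to 0.0225, the last when vehicle-treated replicate 2 was left out, and that of Gzma from -0.1415 to 0.0118, the last without S1P-treated replicate 2. Neither gene was called in any fit. Per read of Cd8a and Cd8b1, a scaling added after the data were seen, the log2 fold changes of Gzma (0.53), Gzmb (0.53), Prf1 (0.38) and Serpinb9 (0.39) changed sign, that of Nkg7 shrank to -0.29 and that of Gzmc rose to 0.87, with no test. This scaling moves all genes upward alike because its denominator fell, so the changes of sign are not particular to these genes. The cause of the fall in Cd8a and Cd8b1 was not tested. Leaving out 1 library at a time gave 6 to 9 pathway genes higher and 4 to 7 lower, and 1158 to 1736 of all genes higher and 961 to 1492 lower. Correlations of deviations between same-numbered samples were 0.12, -0.006 and 0.048, and those between other-numbered samples ran from -0.1 to 0.0496. With 3 samples in each group, these values cannot decide whether the replicate numbers pair the samples. With the replicate number as a block, 1 granule gene was lower (Nkg7, -0.90), 7 pathway genes were higher and 7 lower, and 1697 of all genes were higher and 1423 lower. Prf1 then had an edgeR adjusted p of 0.0479, under the fold threshold in size. Levels by longest transcript kept the order of the 6 most abundant granule genes. Depth limits Gzmd, Gzme, Gzmf and Gzmk, at 13 counts or fewer in every sample.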
